A study of Mus musculus with 24 samples.

Results

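Translesion polymerases and the enzymes that call them to damaged DNA were followed in immortalized Ku70-/- mouse embryonic fibroblasts, fibroblasts of a mouse that lacks the Xrcc6 gene product Ku70 and so cannot use the classical route of joining broken DNA ends. The 10 genes are the Y-family polymerases Polh, Poli, Polk and Rev1, the polymerase zeta subunits Rev3l and Mad2l2, the A-family polymerase Polq, and the PCNA ubiquitylation enzymes Rad18, Ube2a and Ube2b. They were found by the gene names on the array, older synonyms included, and account for 22 of 41174 probes and 10 of 18435 protein-coding genes with a probe. Every group carried the Ku70 deletion, and each group held 3 arrays, which the series describes as independent experiments. Set 1 had 15 arrays, with untreated cells, cells treated for 1 hr with 20 mM KBrO3 and harvested 4 or 24 hr after it was added, and cells co-exposed to 150 μM BPA (bisphenol A, a plastic monomer) before, during and after the same KBrO3 treatment and sampled at the same times. Set 2 had 9 arrays, with its own untreated cells and cells given 150 μM BPA alone, labelled 4 or 24 hr. The set 1 controls are labelled 4 hr and those of set 2 carry no time, so no control is labelled 24 hr.

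KBrO3 is an oxidant that damages DNA bases, chiefly guanine. When a replication fork meets a damaged base, RAD18 together with a RAD6 ubiquitin-conjugating enzyme, made in the mouse from Ube2a and Ube2b, attaches ubiquitin to the sliding clamp PCNA. The marked clamp recruits Y-family polymerases, which insert a nucleotide opposite the lesion, and polymerase zeta, with its catalytic subunit REV3L and its accessory subunit MAD2L2 (REV7), extends from it. REV1 inserts cytosine and also serves as a scaffold for the other polymerases. POLQ acts in a different way of tolerating damage, the joining of broken ends through short stretches of homology.

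Each value below is a log2 signal with the array's 75th percentile subtracted, and levels are compared between groups for the same probe, not between genes. Each gene is represented by its brightest probe, and a difference was called when limma's adjusted p over all tested probes was below 0.05. All 10 representative probes were well above background on all 24 arrays and unsaturated. The dimmest were Polh, with raw signals from 121 to 600.4 intensity units, Polq, from 132.1 to 450.7, and Polk, from 168.8 to 1228. Fibroblast markers were well above background on every array for 9 of 10 genes in set 1 and 10 of 10 in set 2. Of the lists for other cell types, 2 of 6 leukocyte, 1 of 5 epithelial, 2 of 4 endothelial and 0 of 4 skeletal muscle markers were so on every array in set 1, and 3 of 6, 4 of 5, 2 of 4 and 2 of 4 in set 2. Among them the leukocyte marker Ptprc, the endothelial marker Pecam1 and the muscle markers Des and Myh3 were well above background on 0 arrays. The part of other cell types in the results was not tested. The levels of the fibroblast markers were themselves lower than in controls at 24 hr for 10 of 10 genes after KBrO3 (median log2 difference −1.22) and 10 of 10 after co-exposure (−1.64). At 4 hr, 2 were higher and 3 lower after KBrO3 (−0.09) and 2 higher and 8 lower after co-exposure (−0.53). With BPA added to KBrO3, 0 were higher and 7 lower at 4 hr (−0.28) and 1 higher and 8 lower at 24 hr (−0.42). The part of these shifts in the results was not tested. In such bulk RNA, fewer cells with a transcript and less transcript per cell cannot be told apart. The probe for Xrcc6 itself gave a signal on all 24 arrays, and since its position relative to the deletion is not given it does not check the genotype. Replicates spread less in set 1, with a median residual SD of 0.11 on the log2 scale, than in set 2, with 0.32. All KBrO3 arrays at 4 hr lay on slide 2 and all co-exposure arrays at 4 hr on slide 3. The correlation of arrays on the same slide was 0.63 in set 1 and 0.12 in set 2. The spread and the intervals of set 1 thus leave out part of the variation between slides. In set 1 only KBrO3 at 4 hr shares a slide with controls. For the other comparisons with the set 1 controls, and for co-exposure against KBrO3 at 4 hr, slide and treatment cannot be told apart. The same holds for the change of that co-exposure difference from 4 to 24 hr. For KBrO3 at 24 hr against 4 hr, slide and time cannot be told apart.

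Probes of 5 members are shown first, because they say which part of each transcript was read. Those of Rad18, Ube2a and Rev1 are the representative probes, those of Ube2b and Polk are further probes of the gene, and the Poli probe and the representative probes of Polk and Ube2b are not printed. Each is a 60-base oligonucleotide written 5′ to 3′, with the array design's position in build mm7. The Rad18, Rev1 and Polk probes below lie on stretches of 4907, 477 and 4736 genomic bases, more than their own length, and so cross an intron. In the Ube2b probe, capitals mark the 19 bases it shares with the brightest Ube2b probe. The longest run shared by probes of 2 different member genes was 10 bases, and the longest shared by any Ube2a probe with any Ube2b probe was 7. These runs compare probes with probes, and whether a probe also reads the paralog's transcript was not tested.
Rad18, chr6:112805662-112810568: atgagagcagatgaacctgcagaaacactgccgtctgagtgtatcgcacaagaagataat
Ube2a, chrX:31641448-31641507: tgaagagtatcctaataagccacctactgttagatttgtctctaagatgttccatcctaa
Ube2b, chr11:51943454-51943513: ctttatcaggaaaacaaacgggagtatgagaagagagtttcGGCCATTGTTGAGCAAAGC
Rev1, chr1:38294565-38295041: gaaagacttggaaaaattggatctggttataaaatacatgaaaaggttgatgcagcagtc
Polk second probe, chr13:93566194-93570929: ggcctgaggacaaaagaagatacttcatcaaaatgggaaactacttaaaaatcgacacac

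At 4 hr after KBrO3 the Y-family inserters moved in opposite directions. Poli fell 3.23-fold and Polk 2.67-fold, Rev1 rose 1.84-fold, and Polh, the polymerase known for copying past thymine dimers, was not called. At 24 hr Poli was still lower than control after KBrO3 alone and Polk was slightly higher. After co-exposure Poli at 24 hr was called against control only under other processing, whereas Polk stood above it.

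**Figure D1:**
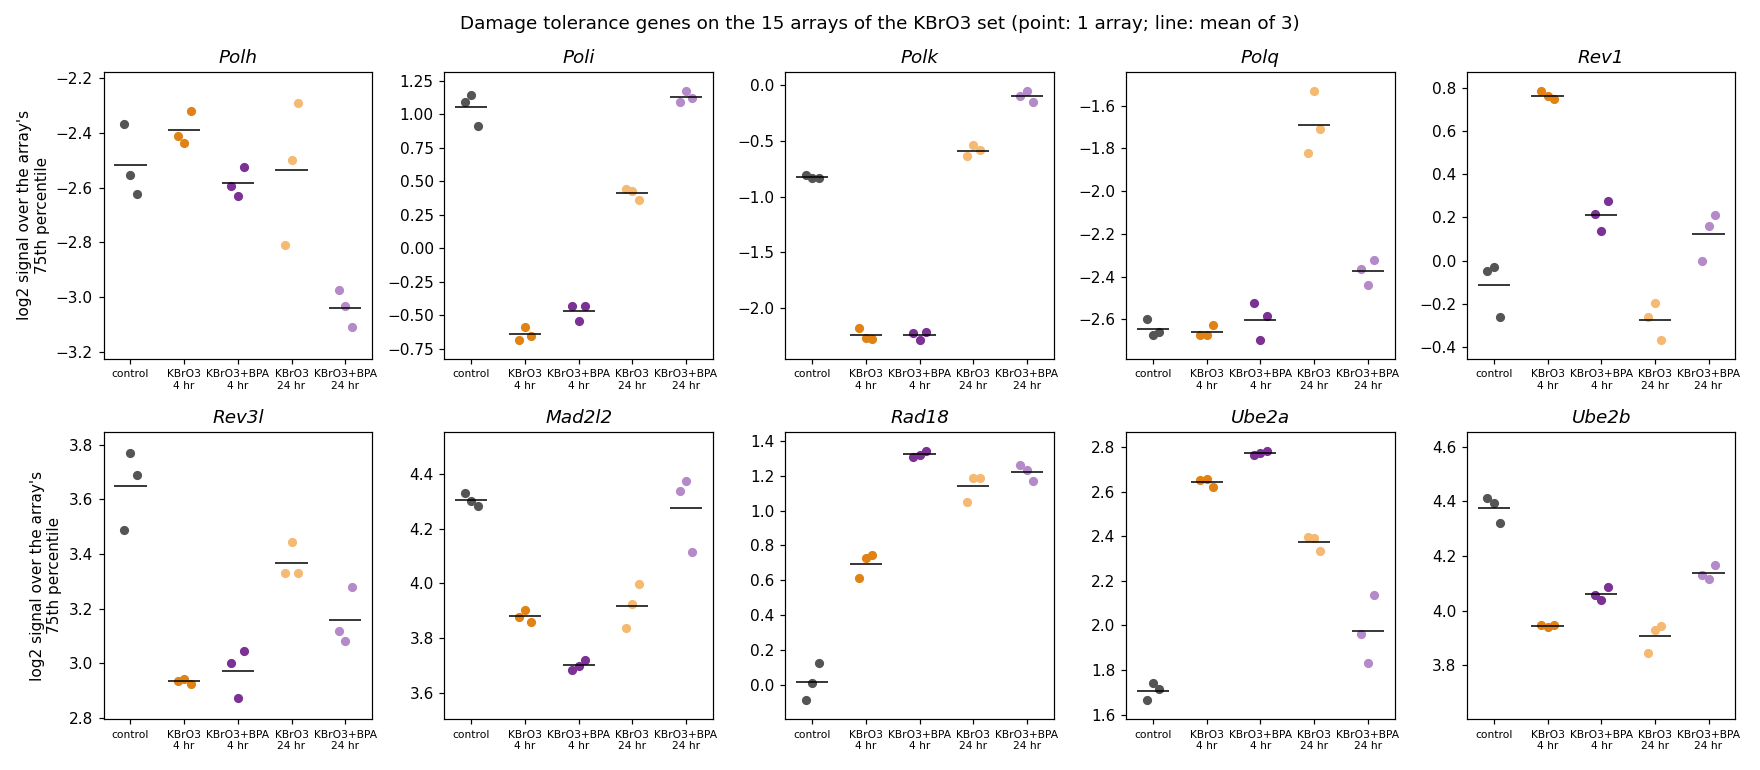
Log2 signal over the array's 75th percentile (vertical axis) of each gene's representative probe on the 15 arrays of set 1, by treatment group. Each point is 1 array and each line the mean of 3. Poli and Polk drop at 4 hr in both KBrO3 groups and return toward or above control at 24 hr, and Rad18 and Ube2a lie above control in all 4 treated groups.

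Polk encodes polymerase kappa, which bypasses bulky guanine adducts and also extends mismatched ends. The 3 control arrays gave −0.80, −0.83 and −0.84, the KBrO3 arrays −2.18, −2.27 and −2.27 at 4 hr, and the co-exposure arrays −2.22, −2.28 and −2.21. All 6 treated arrays at 4 hr lay below the controls, and the arrays of the 2 treatments overlapped. The difference from control was −1.41 (SE 0.043, 2.67-fold lower, adjusted p = 2.56e-11) for KBrO3 and −1.41 (adjusted p = 1.95e-11) for co-exposure. At 24 hr the KBrO3 arrays gave −0.64, −0.54 and −0.59 and the co-exposure arrays −0.10, −0.06 and −0.15. These arrays sat above every control array, by 0.24 for KBrO3 (adjusted p = 0.000376) and by 0.72 for co-exposure (1.65-fold, adjusted p = 1.62e-08). The smaller rise was not called after normexp background correction (0.02, adjusted p = 0.884). The second Polk probe, printed above, was well above background on 0 of the 6 treated arrays at 4 hr and on 3 of 3 co-exposure arrays at 24 hr. By that probe Polk at 24 hr was at least 1.74-fold higher than at 4 hr in co-exposed cells, and after KBrO3 it was well above background on 2 of 3 arrays at 24 hr.

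Poli encodes polymerase iota, an error-prone inserter with a strong preference for some template bases. The control arrays gave 1.09, 1.15 and 0.92, the KBrO3 arrays −0.68, −0.59 and −0.65 at 4 hr, and the co-exposure arrays −0.43, −0.54 and −0.43. Every treated array at 4 hr was below every control array, and the co-exposure arrays lay above the KBrO3 arrays. The fall was −1.69 (SE 0.060, 3.23-fold, adjusted p = 9.81e-11) after KBrO3 and −1.52 (2.87-fold, adjusted p = 2.03e-10) after co-exposure. At 24 hr KBrO3 arrays gave 0.45, 0.43 and 0.36 and co-exposure arrays 1.09, 1.17 and 1.12. KBrO3 alone still left Poli lower than control by 1.56-fold (−0.64, adjusted p = 1.38e-06), while after co-exposure the difference was 0.08 with a 95% interval from −0.05 to 0.21 (adjusted p = 0.269). That difference was called higher under median scaling (0.40, adjusted p = 0.00208) and normexp correction (0.27, adjusted p = 0.0297).

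Rev1 was read by 2 probes. On the representative probe the control arrays gave −0.05, −0.03 and −0.26, the KBrO3 arrays 0.79, 0.76 and 0.75 at 4 hr, and the co-exposure arrays 0.22, 0.14 and 0.28. All treated arrays exceeded the controls at 4 hr, and the KBrO3 arrays stood above the co-exposure arrays. The rise was 0.88 (SE 0.074, 1.84-fold, adjusted p = 2.98e-07) after KBrO3 and 0.32 (1.25-fold, adjusted p = 0.00155) after co-exposure, the latter not called under median scaling (0.18, adjusted p = 0.128). At 24 hr the difference was −0.16 (adjusted p = 0.0741) after KBrO3 and 0.24 (adjusted p = 0.0127) after co-exposure. Without control replicate 3 the KBrO3 difference was −0.24 and called lower (adjusted p = 0.0118), as it was after normexp correction (−0.22, adjusted p = 0.0484), and the co-exposure difference was 0.16 and no longer called (adjusted p = 0.0579). The second Rev1 probe gave smaller differences, 0.20 after KBrO3 at 4 hr (adjusted p = 0.00691) and 0.14 after co-exposure (adjusted p = 0.0483).

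Polh did not pass the test at 4 hr after either treatment, with differences of 0.13 (95% interval −0.11 to 0.37) for KBrO3 and −0.07 (−0.31 to 0.17) for co-exposure. At 24 hr after KBrO3 Polh differed by −0.02 (95% interval −0.26 to 0.22), a value that normexp correction moved to −0.80 and called lower (adjusted p = 0.0293). It was lower at 24 hr after co-exposure, with arrays at −2.97, −3.03 and −3.11 against −2.37, −2.56 and −2.62 in controls. No array overlapped, and the fall was −0.52 (SE 0.109, 1.44-fold, adjusted p = 0.000996). The second Polh probe fell by 0.42 (adjusted p = 0.00693). The fall was not called under scaling to each array's median (−0.21, adjusted p = 0.257) or quantile normalization (−0.28, adjusted p = 0.08).

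Both polymerase zeta subunits were lower at 4 hr with either KBrO3 treatment. For Rev3l, the catalytic subunit, the control arrays gave 3.49, 3.77 and 3.69 and the KBrO3 arrays at 4 hr 2.94, 2.94 and 2.92. These arrays did not overlap. The fall was −0.71 (SE 0.077, 1.64-fold, adjusted p = 2.96e-06), and after co-exposure it was −0.68 (adjusted p = 4.46e-06). A second Rev3l probe fell by 1.02 after KBrO3 and by 1.12 after co-exposure at 4 hr. At 24 hr Rev3l differed from control by −0.28 (adjusted p = 0.00649) after KBrO3, which normexp correction turned to 0.06 (adjusted p = 0.708), and by −0.49 (adjusted p = 0.000106) after co-exposure. With slide as a random block the KBrO3 difference at 24 hr was −0.25 and not called (adjusted p = 0.114), under median scaling it was −0.13 (adjusted p = 0.285) and under quantile normalization −0.17 (adjusted p = 0.0878). The co-exposure difference at 24 hr was not called under median scaling (−0.17, adjusted p = 0.156) or normexp correction (−0.20, adjusted p = 0.181).

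Mad2l2 is also a subunit of the shieldin complex that protects broken ends from resection. It gave 4.33, 4.30 and 4.28 on the control arrays, 3.88, 3.90 and 3.86 after KBrO3 at 4 hr, and 3.68, 3.70 and 3.72 after co-exposure at 4 hr. The 3 groups did not overlap, with co-exposure lowest. The falls from control were −0.43 (SE 0.063, 1.34-fold, adjusted p = 5.28e-05) and −0.60 (1.52-fold, adjusted p = 1.94e-06). Neither was called after normexp correction (−0.14, adjusted p = 0.465, and −0.31, adjusted p = 0.136). At 24 hr Mad2l2 was lower after KBrO3 (−0.39, adjusted p = 0.000158), but not under normexp correction (−0.044, adjusted p = 0.827) or median scaling (−0.24, adjusted p = 0.0733). After co-exposure it differed by −0.03 (95% interval −0.17 to 0.11), a value that median scaling turned to 0.29 (adjusted p = 0.0307).

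Polq was not called at 4 hr and was higher at 24 hr. The control arrays gave −2.60, −2.67 and −2.66, and the KBrO3 arrays at 24 hr −1.82, −1.53 and −1.71. All KBrO3 arrays at 24 hr lay above the controls, by 0.96 (SE 0.069, 1.94-fold, adjusted p = 1.32e-07). The co-exposure arrays at 24 hr, −2.36, −2.44 and −2.32, also lay above the controls but by less (0.27, 1.21-fold, adjusted p = 0.00406). Polq is among the dimmest members, and its direction at 24 hr depended on the background correction, since normexp gave −0.11 (adjusted p = 0.753) for KBrO3 and −0.58 (adjusted p = 0.0958) for co-exposure. With slide as a random block the KBrO3 rise was 0.97 (adjusted p = 1.01e-05) and the co-exposure difference was 0.23 and not called (adjusted p = 0.0836). The treated arrays at 24 hr share no slide with controls, so the block cannot separate slide from treatment. The second Polq probe was not tested in set 1, because no group had it well above background on all its arrays.

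Of the enzymes that mark PCNA, Rad18 and Ube2a were higher after KBrO3 and Ube2b was lower on its representative probe. For Rad18, the ubiquitin ligase that selects PCNA, control arrays gave −0.09, 0.01 and 0.13, KBrO3 arrays 0.61, 0.73 and 0.75 at 4 hr and 1.05, 1.19 and 1.19 at 24 hr. Co-exposure arrays gave 1.31, 1.32 and 1.34 at 4 hr and 1.26, 1.23 and 1.17 at 24 hr. All 12 treated arrays exceeded all controls, and at 4 hr the co-exposure arrays stood clear above the KBrO3 arrays. The rise over control was 0.68 (SE 0.060, 1.60-fold, adjusted p = 5.05e-07) after KBrO3 at 4 hr and 1.31 (2.47-fold, adjusted p = 8.56e-10) after co-exposure at 4 hr. At 24 hr it was 1.12 (2.18-fold, adjusted p = 9.57e-09) after KBrO3 and 1.20 (2.30-fold, adjusted p = 3.53e-09) after co-exposure.

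The second Rad18 probe, designed on a different transcript record (AK028505), moved the other way. It gave −1.30, −1.43 and −1.73 on control arrays, −1.94, −2.03 and −2.09 after KBrO3 at 4 hr, and −1.82, −2.34 and −2.30 after KBrO3 at 24 hr. All 6 KBrO3 arrays lay below the controls. The differences were −0.53 (adjusted p = 0.00561) and −0.67 (adjusted p = 0.00148), and −0.42 (adjusted p = 0.0196) after co-exposure at 4 hr. After co-exposure at 24 hr the mean of this probe was −1.69 against −1.49 in controls, and the arrays overlapped. Averaged over both probes, the KBrO3 difference of Rad18 at 4 hr was 0.07 and not called (adjusted p = 0.27). The rise after KBrO3 at 4 hr was seen on the intron-crossing probe printed above only, and why the probes differ was not tested. The mean of both probes was still called, at smaller sizes, in the other comparisons, with 0.44 after co-exposure at 4 hr, 0.23 after KBrO3 at 24 hr and 0.50 after co-exposure at 24 hr.

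Ube2a, 1 of the 2 RAD6 genes, gave 1.67, 1.74 and 1.71 on control arrays, 2.65, 2.66 and 2.62 after KBrO3 at 4 hr and 2.77, 2.78 and 2.78 after co-exposure at 4 hr. At 24 hr it gave 2.40, 2.39 and 2.34 after KBrO3 and 1.96, 1.83 and 2.13 after co-exposure. All treated arrays lay above the controls, and at 24 hr those of KBrO3 lay above those of co-exposure. The rises were 0.94 (SE 0.061, 1.92-fold, adjusted p = 2.58e-08) and 1.07 (2.10-fold, adjusted p = 6.36e-09) at 4 hr, and 0.67 (1.59-fold, adjusted p = 1.12e-06) and 0.27 (1.21-fold, adjusted p = 0.00179) at 24 hr. A second Ube2a probe rose by 0.57 and 0.78 at 4 hr, and at 24 hr it gave 0.04 (adjusted p = 0.525) and −0.08 (adjusted p = 0.228). Averaged over both probes, the co-exposure difference at 24 hr was 0.09 and not called (adjusted p = 0.135).

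Ube2b, its paralog, was measured by 6 probes. The representative probe gave 4.41, 4.39 and 4.32 on control arrays, 3.95, 3.94 and 3.95 after KBrO3 at 4 hr and 4.06, 4.04 and 4.09 after co-exposure at 4 hr. No treated array reached the controls. It fell by 0.43 (SE 0.039, 1.35-fold, adjusted p = 5.48e-07) and 0.31 (adjusted p = 9.54e-06) at 4 hr and by 0.47 (adjusted p = 4.39e-07) after KBrO3 at 24 hr. After co-exposure at 24 hr the difference was −0.24 (adjusted p = 0.00015), and it turned to 0.08 under median scaling and 0.09 under normexp correction, neither called (adjusted p = 0.444 and 0.634). None of the other 3 falls was called after normexp correction, which gave −0.14 (adjusted p = 0.428) and −0.12 (adjusted p = 0.5) for KBrO3 at 4 and 24 hr and −0.020 (adjusted p = 0.917) for co-exposure at 4 hr. The probe printed above was lower in all 4 comparisons with control, by 0.39 and 0.70 after KBrO3 at 4 and 24 hr and by 0.62 and 0.36 after co-exposure. After KBrO3 at 4 hr, 5 of the 6 Ube2b probes were called lower, the largest difference being −0.98, and the sixth, the dimmest, was not called. The number called lower was 3 after co-exposure at 4 hr, 4 after KBrO3 at 24 hr and 3 after co-exposure at 24 hr, and none was called higher.

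**Figure D2:**
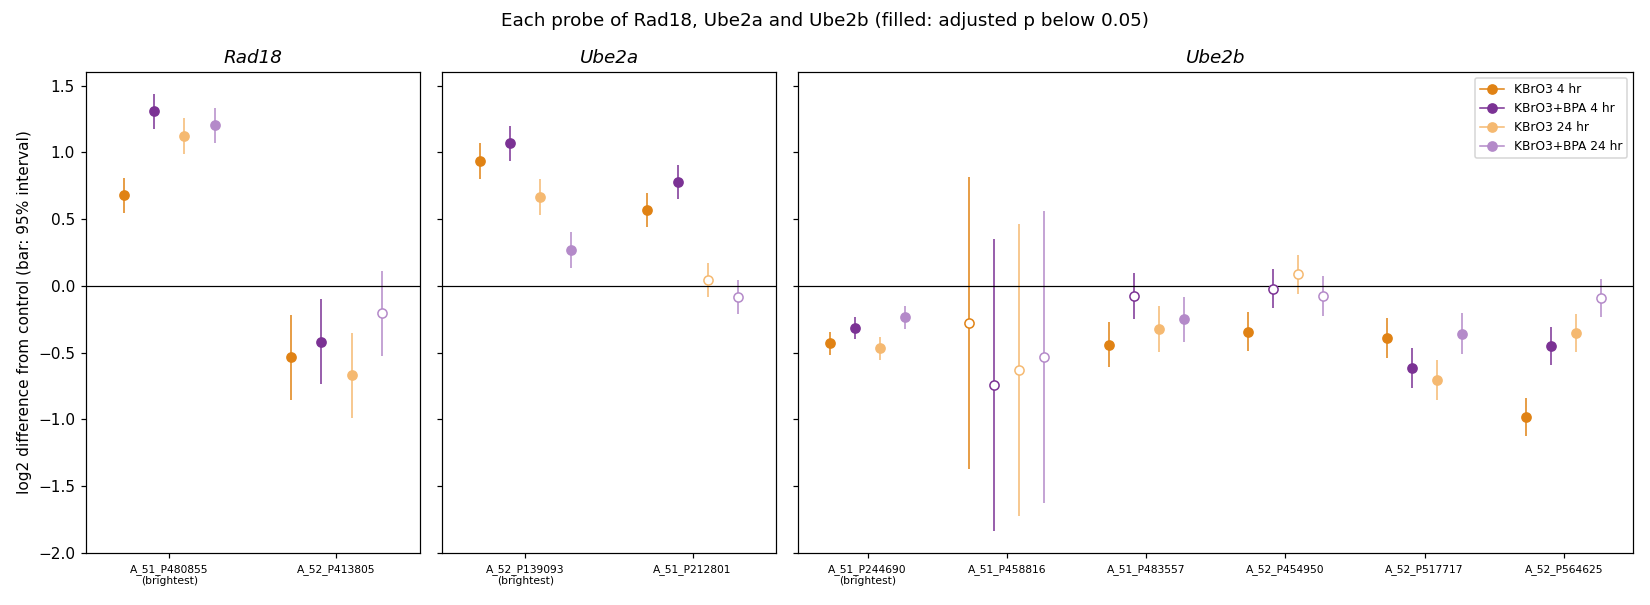
Log2 difference from the set 1 controls (vertical axis) of every Rad18, Ube2a and Ube2b probe, with 95% intervals, for KBrO3 and co-exposure at 4 and 24 hr. The Rad18 probes lie on opposite sides of 0 after KBrO3, both Ube2a probes lie above 0 at 4 hr, and the Ube2b probes lie at or below 0 at 4 hr after KBrO3.

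The promoters of the RAD6 paralogs are printed because the genes encode closely related enzymes and moved in opposite directions. Each is given 5′ to 3′ on the gene's strand, from 230 bases before to 20 after the start site, from RefSeq on GRCm38.p6. Capitals in Ube2b mark a CRE motif, TGACGTCA, which begins 1 base before the start site, and Ube2a has no capitals because none of the motifs searched was found in its window. The GC content was 64.4% in Ube2a and 54.8% in Ube2b. The 300-base window of a second Ube2b start site, not printed, held no match and had a GC content of 71.0%.
Ube2a, chrX:36874065-36874314, plus strand: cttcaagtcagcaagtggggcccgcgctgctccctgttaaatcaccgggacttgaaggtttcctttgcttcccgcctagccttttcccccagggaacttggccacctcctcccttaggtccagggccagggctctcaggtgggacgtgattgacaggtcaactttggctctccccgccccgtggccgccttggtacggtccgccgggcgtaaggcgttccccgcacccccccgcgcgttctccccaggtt
Ube2b, chr11:52000767-52001016, minus strand: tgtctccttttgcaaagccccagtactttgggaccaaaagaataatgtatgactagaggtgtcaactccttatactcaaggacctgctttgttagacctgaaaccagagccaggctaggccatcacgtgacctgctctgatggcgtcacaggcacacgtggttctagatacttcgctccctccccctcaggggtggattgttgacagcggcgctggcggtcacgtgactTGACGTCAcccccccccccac

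Both strands of 300-base windows, 250 bases before and 50 after the start site, were searched for TTTNGCGC (E2F), TGACGTCA (CRE), TGACNNNGC (the antioxidant response element core) and the p53 decamer. These motifs were present in 1.38%, 1.79%, 12.4% and 8.36% of all 32851 promoters. Of the 10 genes, 8 had a window, and their 12 windows held 3 matches. Apart from the CRE of Ube2b, Rev1 held an antioxidant response element core 212 bases before its start site, and an internal Polk window held a p53 decamer 231 bases before. No window was used for Poli or Rev3l.

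**Figure D3:**
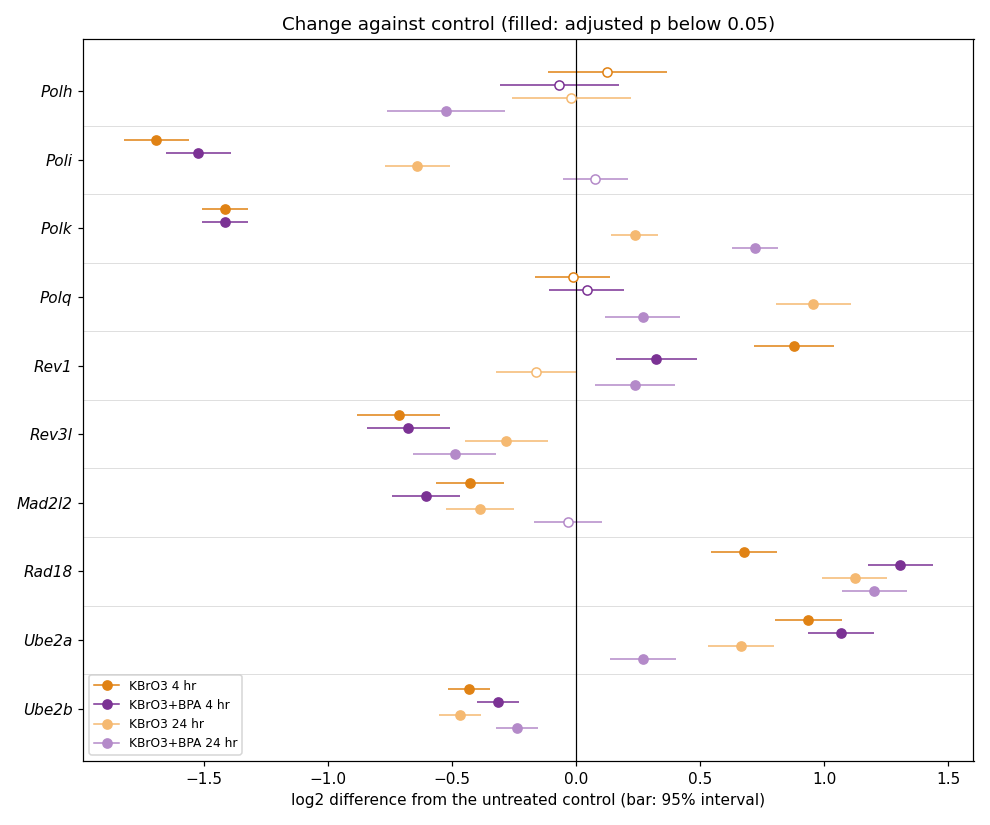
Log2 difference from the set 1 controls (horizontal axis) with 95% intervals for the representative probe of each gene after KBrO3 and co-exposure at 4 and 24 hr. Filled points passed an adjusted p of 0.05. Poli and Polk lie furthest below 0 at 4 hr, and Rad18 lies above 0 in all 4 comparisons.

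Counted over the 10 genes, 3 were higher (Rev1, Rad18, Ube2a) and 5 lower (Poli, Polk, Rev3l, Mad2l2, Ube2b) than control after KBrO3 at 4 hr. Of the 14101 genes tested in set 1, 34.5% were higher and 38.2% lower, so a large share of all genes moved and the number of members called is near that background. After co-exposure at 4 hr the same 3 were higher and the same 5 lower, against 39.7% and 40.7% of all genes. After KBrO3 at 24 hr, 4 were higher (Polk, Polq, Rad18, Ube2a) and 4 lower (Poli, Rev3l, Mad2l2, Ube2b), against 31.3% and 38.1%. After co-exposure at 24 hr, 5 were higher (Polk, Polq, Rev1, Rad18, Ube2a) and 3 lower (Polh, Rev3l, Ube2b), against 34.5% and 37.9%. These 4 comparisons share the same 3 control arrays. The median log2 difference of the members at 4 hr was −0.22 with KBrO3 and −0.19 with co-exposure, against 0.02 and 0.01 for all genes. At 24 hr it was −0.09 after KBrO3 and 0.16 after co-exposure, against −0.07 and −0.06.

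KBrO3 at 4 hr and the controls could also be compared on a shared slide, with 3 KBrO3 arrays and 1 control array. There Poli differed by −1.55, Polk by −1.40, Rev3l by −0.75, Mad2l2 by −0.40 and Ube2b by −0.38. Rev1 differed by 1.03, Ube2a by 0.93 and Rad18 by 0.57. These arrays are part of the full comparison. The KBrO3 and control arrays of the 8 genes called at 4 hr did not overlap, so their direction on that slide was fixed beforehand.

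BPA added to KBrO3 was compared with KBrO3 alone to ask what BPA changed in the response. At 4 hr Rad18 was higher with BPA by 0.63 (SE 0.060, 1.55-fold, adjusted p = 5.23e-06) and Rev1 was lower by 0.55 (SE 0.074, 1.47-fold, adjusted p = 6.37e-05). Poli (0.17, adjusted p = 0.0293), Ube2b (0.12, adjusted p = 0.0219) and Mad2l2 (−0.18, adjusted p = 0.0283) passed by less. The Mad2l2 call was lost without any 1 of the 6 arrays. That of Ube2b was lost without any of 5 (all but co-exposure replicate 2), and that of Poli without any of 4 (KBrO3 replicates 1 and 3, co-exposure replicates 1 and 3). None of these 3 was called with slide as a random block (adjusted p from 0.0926 to 0.564) or after normexp correction (adjusted p from 0.576 to 0.802). Rad18 was called with that block (0.73, adjusted p = 0.000115). The treatments share no slide at 4 hr, so the block cannot separate slide from treatment. The second Rad18 probe differed by 0.11 and was not called (adjusted p = 0.521), and the mean of both probes differed by 0.37, still called. Ube2b differed by −0.03 under median scaling (adjusted p = 0.832) and by 0.11 over the mean of its probes (adjusted p = 0.406). Of the other Ube2b probes, 3 were called higher with BPA at 4 hr, by 0.32, 0.36 and 0.53, the printed probe was called lower (−0.23, adjusted p = 0.0137), and the dimmest was not called. Of the members, 3 were higher and 2 lower, against 28.1% and 32.7% of all genes. Polk differed by 0.00 with a 95% interval from −0.09 to 0.09. Other processing gave values from −0.14 to 0.03, none called, so the choice of processing moved Polk beyond that interval.

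**Figure D4:**
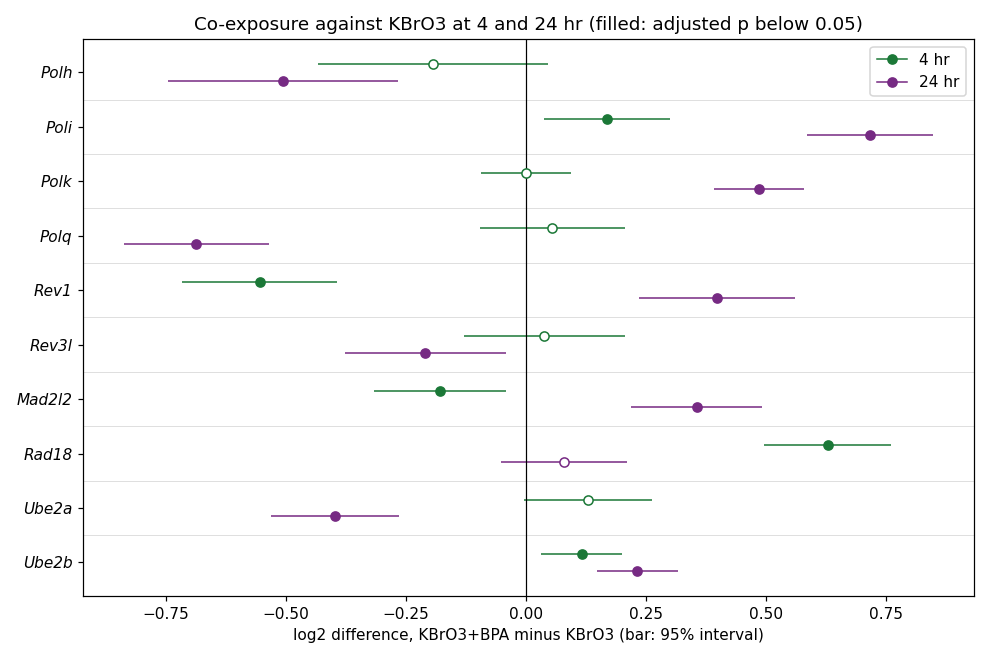
Log2 difference of co-exposure minus KBrO3 alone (horizontal axis) at 4 and 24 hr for the representative probe of each gene, with 95% intervals and filled points for an adjusted p below 0.05. Rad18 and Rev1 differ most at 4 hr, and Poli and Polq differ most at 24 hr.

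At 24 hr Poli, which KBrO3 alone left below control, was higher with BPA than without it by 0.72 (SE 0.060, 1.64-fold, adjusted p = 1.46e-06). Polk was higher by 0.49 (SE 0.043, 1.40-fold, adjusted p = 2.23e-06), Rev1 by 0.40 (adjusted p = 0.000853), Mad2l2 by 0.36 (adjusted p = 0.000586) and Ube2b by 0.23 (adjusted p = 0.00039). Polq was lower by 0.69 (SE 0.069, 1.61-fold, adjusted p = 6.78e-06), Polh by 0.51 (adjusted p = 0.00242), Ube2a by 0.40 (adjusted p = 0.000213) and Rev3l by 0.21 (adjusted p = 0.0417). The Rev3l call was lost without any of 5 of the 6 arrays (all but co-exposure replicate 3) and with the replicate number as a block (adjusted p = 0.0536), and median scaling gave −0.04 (adjusted p = 0.778). Polh was not called under median scaling (−0.34, adjusted p = 0.1) or normexp correction (−0.30, adjusted p = 0.765), and normexp also lost Mad2l2 (adjusted p = 0.319), Polq (0.459), Rev3l (0.301) and Ube2b (0.605). Over the mean of its probes Ube2b differed by 0.14 (adjusted p = 0.291). Rad18 differed by 0.08 with a 95% interval from −0.05 to 0.21 on its representative probe. The second Rad18 probe was higher with BPA by 0.46 (adjusted p = 0.0207), and the mean of both probes by 0.27 (adjusted p = 0.00178). Of the members, 5 were higher and 4 lower, against 28.5% and 21.9% of all genes. On slide 4, which holds 2 arrays of each treatment, Poli differed by 0.74, Polk by 0.49, Polq by −0.78 and Polh by −0.61, the same directions as over all slides.

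The difference between co-exposure and KBrO3 changed between 4 and 24 hr for 7 of the 10 genes by a test of that change. Its 4 hr groups share no slide, so slide and the effect of BPA cannot be told apart in it. The difference became more positive for Rev1 (by 0.95, adjusted p = 2.25e-05), Poli (0.55, adjusted p = 0.000254), Mad2l2 (0.53, adjusted p = 0.000404) and Polk (0.49, adjusted p = 5.54e-05). It became more negative for Polq (−0.74, adjusted p = 8.15e-05), Rad18 (−0.55, adjusted p = 0.00026) and Ube2a (−0.53, adjusted p = 0.000375). Median scaling gave −0.24 for Rad18 (adjusted p = 0.158) and −0.22 for Ube2a (adjusted p = 0.149), neither called, and the mean of both Rad18 probes gave −0.10 (adjusted p = 0.311). Normexp correction lost the calls of Mad2l2 (0.50, adjusted p = 0.268), Polk (0.47, adjusted p = 0.0746) and Polq (−0.48, adjusted p = 0.674). Over all genes, 31.4% were called in the positive and 26.0% in the negative direction. On its representative probe Rev1 was lower with BPA at 4 hr and higher with BPA at 24 hr, and Mad2l2 turned the same way with a weaker 4 hr call. The second Rev1 probe was not called for the effect of BPA at 4 hr (−0.07, adjusted p = 0.327), at 24 hr (0.05, adjusted p = 0.515) or for its change (0.12, adjusted p = 0.242), and the mean of both probes gave a change of 0.54, still called.

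From 4 to 24 hr after KBrO3, Polk rose by 1.65 (3.14-fold, adjusted p = 1.01e-11), Poli by 1.05 (2.07-fold, adjusted p = 8.59e-09) and Polq by 0.97 (1.96-fold, adjusted p = 6.81e-08), and Rad18 and Rev3l rose by 0.44 and 0.43. The second Rad18 probe went from a mean of −2.02 to −2.15, and the mean of both probes rose by 0.15. Rev1 fell by 1.04 (2.06-fold, adjusted p = 6.74e-08) and Ube2a by 0.27 (adjusted p = 0.00153). The second Rev1 probe went from a mean of 0.04 to −0.15, and the mean of both Rev1 probes changed by −0.61. The Polq rise was not called after normexp correction (0.55, adjusted p = 0.164). The Ube2a fall was not called under median scaling (−0.12, adjusted p = 0.215), normexp correction (−0.20, adjusted p = 0.19) or quantile normalization (−0.038, adjusted p = 0.642). These 5 genes higher and 2 lower compare with 34.0% and 43.8% of all genes. In co-exposed cells the rises were steeper, by the test above and with its limits, for Polk, at 2.14 (4.40-fold, adjusted p = 9.25e-13), and for Poli, at 1.60 (3.03-fold, adjusted p = 1.67e-10). Mad2l2 rose by 0.57, and Polq by 0.23, which a fixed slide block turned to −0.00 (adjusted p = 0.984) and which a random block left uncalled (0.09, adjusted p = 0.369). Rev3l rose by 0.19 (adjusted p = 0.0396), a call lost without co-exposure replicate 1 or 3 at 24 hr or replicate 1 or 2 at 4 hr. That Rev3l difference was also not called with slide as a fixed block (0.07, adjusted p = 0.623) or a random block (0.13, adjusted p = 0.28). Ube2a fell by 0.80 (1.74-fold, adjusted p = 1.18e-07), and Polh by 0.46, which median scaling turned to 0.00 (adjusted p = 0.985) and which quantile normalization (−0.14, adjusted p = 0.338) and normexp correction (−0.44, adjusted p = 0.237) left uncalled. With slide as a block the Polh fall was larger, −0.84 fixed (adjusted p = 0.0019) and −0.70 random (adjusted p = 0.00021). Rad18 differed by −0.10 and was not called, but it was called lower with slide as a fixed block (−0.21, adjusted p = 0.0197) or random block (−0.18, adjusted p = 0.031) and higher under median scaling (0.36, adjusted p = 0.00425). The 5 members called higher and 2 called lower in co-exposed cells compare with 37.1% and 47.4% of all genes.

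BPA alone gave no called difference in any member in limma's test. At 4 hr, 3.01% of the 15743 genes tested in set 2 were higher and 1.67% lower, at 24 hr 1.83% and 2.48%, and between 24 and 4 hr 1.24% and 3.06%. At an unadjusted p below 0.05 in limma's test there was 1 member at 4 hr, 0 at 24 hr and 1 between the times. Of all genes, 20.2%, 20.8% and 21.3% were below it, so these members do not stand out by number. The member at 4 hr was Polk, with arrays at −0.69, −0.80 and −1.14 after BPA against −0.46, −0.34 and −0.37 in controls. The BPA arrays all lay lower, by 0.48 (95% interval −0.96 to −0.01, adjusted p = 0.258). The member between the times was Rad18, which gave 0.67, 0.60 and 0.50 at 4 hr and 0.39, −0.07 and −0.44 at 24 hr, a difference of −0.63 (adjusted p = 0.22). The 95% intervals reached 0.45 to 1.04 to either side of a member's value in set 2, against 0.08 to 0.24 in set 1, so smaller changes with BPA alone were not detectable here.

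**Figure D5:**
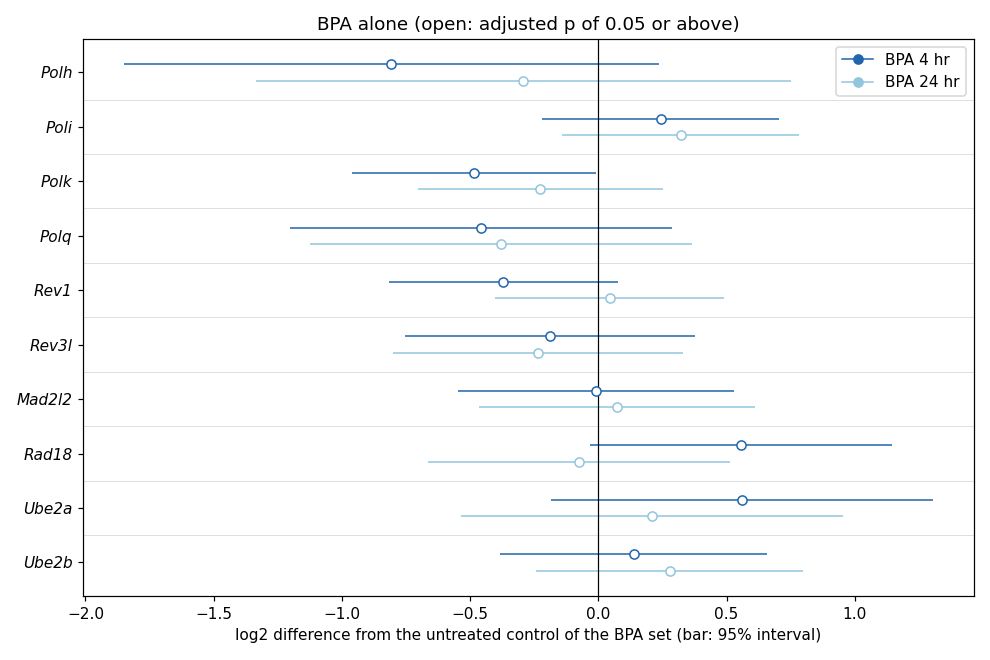
Log2 difference of BPA alone from the set 2 controls (horizontal axis) at 4 and 24 hr for the representative probe of each gene, with 95% intervals. No point passed an adjusted p of 0.05, and the intervals are wider than those of set 1.

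The second Rad18 probe was the exception among the member probes tested in set 2. It gave −0.70, −0.29 and −0.22 after BPA at 4 hr against −1.65, −1.88 and −1.48 in controls. The groups did not overlap, and the difference was 1.27 (adjusted p = 0.038). In set 1 the same probe fell after KBrO3, and the 2 sets were normalized separately, so those values were not tested against each other. Averaged over both probes, Rad18 was higher after BPA at 4 hr by 0.91 (adjusted p = 0.0331).

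Among 39 other genes of damage tolerance, 37 were tested in set 1. After KBrO3 at 4 hr 18 were higher and 16 lower, against 34.5% and 38.2% of all genes, and after co-exposure 21 and 13, against 39.7% and 40.7%. At 24 hr the counts were 21 and 7 after KBrO3, against 31.3% and 38.1%, and 26 and 3 after co-exposure, against 34.5% and 37.9%, with medians of 0.28 and 0.35 on the log2 scale against −0.07 and −0.06 for all genes. The list held 38 genes tested in set 2, and 0 of them were called with BPA alone at either time. Pcna, the clamp that RAD18 modifies, was higher after KBrO3 at 4 hr by 1.03 (SE 0.045, 2.04-fold, adjusted p = 6.73e-10) and after co-exposure by 1.10 (adjusted p = 2.95e-10). At 24 hr Pcna stood 0.16 (adjusted p = 0.00696) and 0.35 (adjusted p = 2.06e-05) above control. Usp1, the protease that removes ubiquitin from PCNA, was higher in all 4 comparisons, by 0.39 and 0.58 at 4 hr and by 0.24 and 0.26 at 24 hr.

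The largest rises in that list at 4 hr were those of Sprtn, a protease for DNA-protein crosslinks, with 1.95 after KBrO3 and 1.66 after co-exposure, and of the ubiquitin ligase Rnf8, with 1.33 and 1.60. The largest falls after KBrO3 at 4 hr were those of Poll, a gap-filling polymerase (−1.77), and of Primpol, which restarts synthesis beyond a lesion (−1.53). After co-exposure they were those of Zranb3, a fork-remodelling helicase (−1.53), and Poll (−1.53). At 24 hr Sprtn (0.85) and Helq (0.85), a helicase of fork repair, rose most after KBrO3, and Helq (1.04) and the polymerase delta subunit Pold2 (0.96) after co-exposure. Hltf, the ligase that extends the ubiquitin chain on PCNA, was lower in all 4 comparisons, by 1.22 and 0.70 after KBrO3 and by 1.37 and 0.86 after co-exposure at 4 and 24 hr. Of 22 S phase and replication genes, 13 were higher and 5 lower after KBrO3 at 4 hr and 11 and 7 after co-exposure. At 24 hr 14 were higher and 4 lower after KBrO3 and 15 and 2 after co-exposure, against the same shares of all genes as above. The medians of these genes were 0.33 and 0.25 at 4 hr and 0.27 and 0.40 at 24 hr after KBrO3 and co-exposure, against 0.02, 0.01, −0.07 and −0.06 for all genes. The part of replication in the members' changes was not tested.

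For each member the genes with the most similar profile were those whose 4 differences from the set 1 controls lay nearest by root mean square, out of 14101 genes. For Polk they were Apol9b (0.09 on the log2 scale), Mindy4 and Dcaf4, for Poli Marchf9 (0.06), Adck2 and Lurap1, and for Rad18 Dnajc11 (0.07), Nme1 and Farsb. For Rev1 they were Rnps1 (0.05) and Smad2, for Rev3l Atg4a (0.03), for Mad2l2 Eci2 (0.04), for Ube2a Ep400 (0.08), for Ube2b Dctn4 (0.05) and for Polq Plekhg4 (0.10). Apol9b gave −1.26 and −1.48 at 4 hr and 0.23 and 0.65 at 24 hr after KBrO3 and co-exposure, the drop and return seen for Polk. The likeness is over 4 group differences that share their controls, and nothing follows from it about function.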

How the data were processed

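RNA from 24 cultures was labelled with Cy3 and hybridized to 1-color Agilent Whole Mouse Genome arrays. The authors deposited fluorescence intensity values per spot as Feature Extraction output (version 9.5.3.1 in set 1 and 12.0.0.7 in set 2, per the file headers). The deposited series table holds the same processed intensity values, equal in 1041096 of 1041096 comparisons. No normalization between arrays had been applied.

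Processed signals were converted to log2, less the 75th percentile of the array. Outlier spots were dropped and a probe's spots averaged. A probe entered the test of a set, 27310 in set 1 and 31810 in set 2, if some group had it well above background on all 3 of its arrays. Genes were named through RefSeq accessions and symbols of GRCm38.p6, with 32722 of 41174 probes matched. Each set was fitted over all its groups with limma 3.58.1 (lmFit and eBayes, two-sided) in R 4.3.3, without covariates, and p-values were adjusted by Benjamini-Hochberg over all tested probes. Each treatment was compared with the controls of its own set, because the sets were extracted and normalized separately. The share of spots well above background was 57.7% to 68.1% in set 1 and 76.4% to 79.4% in set 2, and 3 arrays per group limit the precision.

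The 10 members, the gene lists and the tests were chosen with earlier results of these data known. All members and their probes were named. Of the pathway list, Pcna and Usp1 and, in each comparison with control, the 2 largest rises and 2 largest falls among called genes could be named, with a selection given, Hltf among the latter at 24 hr. The nearest genes are a selection from 3 per member. Alternatives were quantile and median scaling, normexp correction with an offset of 50 (on the median raw signal in set 2, whose files lack the mean), the series table, other filters, outlier spots kept, fits with only the groups compared, error weights, Bonferroni-adjusted p below 0.01 with a fold beyond 1.5, slide and replicate number as blocks, the mean of a gene's probes, and leaving out each array. Fitting steps were tested on simulated data. The labels give 4 and 24 hr in BPA alone, while the study's methods give 1 hr more.

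Replicate numbers did not pair arrays across groups. The mean correlation of residuals between same-numbered arrays was −0.03 over 30 pairs in set 1 and 0.0020 over 9 pairs in set 2. Figures were drawn with matplotlib 3.10.9 in Python 3.11.15.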

Additional observations from a re-analysis of the deposited data

Results flagged for a closer look

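The log2 effect of adding BPA to KBrO3 differed between 4 and 24 hr, by limma's test of that difference, for Mad2l2 (0.53), Poli (0.55), Polk (0.49), Polq (−0.74), Rad18 (−0.55), Rev1 (0.95) and Ube2a (−0.53), a positive value meaning a more positive effect at 24 hr. The differences of Rad18 and Ube2a were not called under median scaling (−0.24, adjusted p = 0.158, and −0.22, adjusted p = 0.149), that of Rad18 not over the mean of its probes (−0.10, adjusted p = 0.311), and those of Mad2l2, Polk and Polq not after normexp correction (adjusted p = 0.268, 0.0746 and 0.674). Between the same times the log2 difference from control after KBrO3 alone changed for Poli (1.05), Polk (1.65), Polq (0.97), Rad18 (0.44), Rev1 (−1.04), Rev3l (0.43) and Ube2a (−0.27). The Ube2a change was not called under median scaling, normexp correction or quantile normalization, and that of Polq not after normexp correction. The mean of both Rad18 probes gave 0.15. After co-exposure the log2 difference from control changed for Mad2l2 (0.57), Polh (−0.46), Poli (1.60), Polk (2.14), Polq (0.23), Rev3l (0.19) and Ube2a (−0.80). Polh was at 0.0036 under median scaling and Polq at −0.0033 with slide as a fixed block, neither called. Rev3l lost its call in 10 of 20 alternatives. Both times share the set 1 controls, which cancel in these differences, and the arrays of a treatment at 4 and at 24 hr lie on different slides. The KBrO3 and co-exposure arrays at 4 hr also share no slide.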

How the results depend on the processing

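Of 1800 values of members under alternatives in set 1, 1596 kept their direction and side of the threshold, 130 lost a call, 22 gained one, 12 turned in direction and 40 uncalled values moved. Of 600 in set 2, 555 were the same, 1 gained a call and 44 uncalled values moved. Against control, the calls of Poli, Rad18 and Ube2a after KBrO3 at 24 hr and after co-exposure at 4 hr, of Poli, Polk, Rev1 and Ube2a after KBrO3 at 4 hr, of Polk after co-exposure at 4 and 24 hr and of Rad18 after co-exposure at 24 hr held in every alternative run. Median scaling moved the median of all genes by 0.15 (KBrO3 24 hr), −0.14 and 0.32 (co-exposure 4 and 24 hr) against control, by −0.14 and 0.17 for co-exposure against KBrO3, by 0.15 and 0.46 from 4 to 24 hr after KBrO3 and co-exposure, by 0.31 for the change of the BPA effect, and by 0.11 for BPA at 24 hr against control and against 4 hr. Quantile normalization moved it by 0.14 and 0.18 from 4 to 24 hr after KBrO3 and co-exposure.

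Under the stricter rule of Bonferroni p and fold, the members called fell to 5 and 4 after KBrO3 at 4 and 24 hr and 4 and 2 after co-exposure. For co-exposure against KBrO3 they fell to 1 at each time, from 4 to 24 hr to 4 after KBrO3 and 3 after co-exposure, and for the change of the BPA effect to 0. Normexp correction gave 5 after KBrO3 at 24 hr (Poli, Rad18 and Ube2a of the 8, with Polh at −0.80 and Rev1 at −0.22 gained), 2 and 4 for co-exposure against KBrO3 at 4 and 24 hr, 4 from 4 to 24 hr after co-exposure and 4 for the change of the BPA effect. For co-exposure against KBrO3 at 4 hr, median scaling gave 3, no filter on dim probes 2 and slide as a random block 2, and leaving out 1 array gave 2 to 4. The mean of a gene's probes gave 1 for BPA at 4 hr, Rad18. The share of all genes called under these other settings was not counted, so these counts have no background beside them.

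Directions turned as follows, and the cause was not tested. Median scaling gave 0.0036 for Polh, 0.36 for Rad18 and 0.37 for Rev1 from 4 to 24 hr after co-exposure, 0.29 for Mad2l2 and 0.081 for Ube2b after co-exposure at 24 hr, and −0.026 for Ube2b in co-exposure against KBrO3 at 4 hr. Normexp gave −0.11 for Polq and 0.056 for Rev3l after KBrO3 at 24 hr, and −0.58 for Polq and 0.086 for Ube2b after co-exposure at 24 hr. Quantile normalization gave 0.36 for Ube2b from 4 to 24 hr after KBrO3, and slide as a fixed block −0.0033 for Polq from 4 to 24 hr after co-exposure.

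With the replicate number as a block, the members called for co-exposure against KBrO3 at 24 hr were 8, since Rev3l (−0.21, adjusted p = 0.0536) was lost, and no other member's call changed. The numbers do not pair the samples.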
